A study of Mus musculus with 21 samples.

Results

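The circadian clock genes Per1, Per2, Per3, Arntl, Clock, Dbp, Nr1d1, Nr1d2, Tef and Ciart were followed in the hippocampus of male mice that were separated from their mothers early in life and of mice with standard rearing. The genes were chosen by name, as core components and direct outputs of the clock. All 10 were present among the 55487 genes of the table, and all 10 were among the 18146 genes that passed the filter on low counts. The level of these genes follows the hour of the day, so they were read for the difference between the rearing conditions and for differences between mice, and between sets of mice, of the kind that another hour of tissue collection could give.

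The circadian clock is a loop of transcription that runs in nearly every cell. ARNTL (also called BMAL1) and CLOCK form a pair that binds E-boxes and switches on the Per and Cry genes, whose proteins return to the nucleus and block that pair. The same pair drives Nr1d1 and Nr1d2, which encode the nuclear receptors REV-ERB alpha and beta and repress Arntl, so that Arntl peaks at the opposite part of the day from Nr1d1, Dbp and the Per genes in most tissues. DBP and TEF are PAR bZIP factors that carry the rhythm to genes with D-boxes, and CIART (also called CHRONO) is a further repressor of the ARNTL and CLOCK pair. The hippocampus is known for a rhythm of these genes that lags the pacemaker of the suprachiasmatic nucleus, and Per1 is also known as a gene that neuronal activity and glucocorticoids induce.

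All mice were wild-type C57BL/6 males from which the hippocampus was taken at 10 weeks of age, after decapitation without anaesthesia. In the maternal separation (MS) group, nests were taken from the dam for 4 hr a day between postnatal days 10 and 17, in alternation during the light and the dark phase, and the study's methods state that most nesting material was removed from their home cages. Mice with standard rearing (SR) were left with the dam. Lights went off at 13:00 for both groups, the hour at which each mouse was killed is not given in the sources used here, and 9 MS and 12 SR libraries of poly-A RNA, each from 1 mouse, were sequenced.

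The labels carry an animal number for each mouse. These numbers form 7 sets of 3 consecutive numbers, each of a single condition (sets A to C in MS and D to G in SR), and mice are called A1, A2 and so on here. The numbers also lie in separate ranges, from 54950 to 55068 (the first range, sets A, B, D, E and F) and from 56999 to 57139 (the second range, sets C and G), and each range holds both conditions. The labels do not say what a set or a range stands for. According to the methods, litters held 3 males and litter mates were housed together, so mice of a set may share a litter and a cage.

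The MS library A2 stood apart and was left out of the tests. In a principal component analysis it lay 33.3 units from the median of the libraries, and no other library lay more than 14.8 away. All 10 markers of hippocampal neurons were lower in A2 than in each other library, and all 8 markers of the striatum were higher. The tests used 8 MS and 12 SR mice, of which 14 (5 MS and 9 SR) were in the first range and 6 (3 MS and 3 SR) in the second. Their totals lay between 17276810 and 26450808 counts per library, with medians of 21785222 in the first range and 21963365 in the second. The summed level of the 10 hippocampal markers lay between 797 and 1530 CPM in these 20 mice. CPM relates the count of a gene to the total of its library, scaled to the same total in every library and adjusted by TMM.

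The sequences around the starts of Ciart, Per1, Nr1d1, Per3 and Arntl are shown because they hold the elements through which the loop described above is known to work. RefSeq windows of 300 bases on GRCm38.p6, from 250 bases before to 50 bases after an annotated start, were matched to 9 of the 10 genes by symbol, with 14 windows in all. Capitals mark an E-box (CACGTG), its variant (CACGTT, which reads AACGTG on the other strand), a D-box (TTATGTAA or TTACGTAA) and, in Arntl, a ROR element, each searched on both strands. Ciart lies at chr3:95882179-95882478 on the minus strand, Per1 at chr11:69098699-69098998 on the plus strand, Nr1d1 at chr11:98775328-98775627 on the minus strand, Per3 at chr4:151044616-151044915 on the minus strand, and Arntl at chr7:113207261-113207560 on the plus strand.
Ciart: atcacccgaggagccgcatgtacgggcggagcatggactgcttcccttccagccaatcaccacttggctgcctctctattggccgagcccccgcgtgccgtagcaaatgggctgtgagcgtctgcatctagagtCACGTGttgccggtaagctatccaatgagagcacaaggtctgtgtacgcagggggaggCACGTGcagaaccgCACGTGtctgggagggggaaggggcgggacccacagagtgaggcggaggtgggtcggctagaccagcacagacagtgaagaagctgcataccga
Per1: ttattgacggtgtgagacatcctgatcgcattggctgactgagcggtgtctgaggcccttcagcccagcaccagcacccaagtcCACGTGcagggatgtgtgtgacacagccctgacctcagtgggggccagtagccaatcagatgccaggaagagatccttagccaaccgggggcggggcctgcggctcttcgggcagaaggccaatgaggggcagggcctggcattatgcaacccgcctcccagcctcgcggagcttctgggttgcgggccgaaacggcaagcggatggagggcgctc
Nr1d1: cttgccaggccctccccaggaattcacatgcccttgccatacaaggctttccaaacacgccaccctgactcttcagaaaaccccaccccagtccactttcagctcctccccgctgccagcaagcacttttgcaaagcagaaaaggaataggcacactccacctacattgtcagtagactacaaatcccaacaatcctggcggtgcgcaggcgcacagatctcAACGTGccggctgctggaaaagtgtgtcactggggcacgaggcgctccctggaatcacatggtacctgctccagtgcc
Per3: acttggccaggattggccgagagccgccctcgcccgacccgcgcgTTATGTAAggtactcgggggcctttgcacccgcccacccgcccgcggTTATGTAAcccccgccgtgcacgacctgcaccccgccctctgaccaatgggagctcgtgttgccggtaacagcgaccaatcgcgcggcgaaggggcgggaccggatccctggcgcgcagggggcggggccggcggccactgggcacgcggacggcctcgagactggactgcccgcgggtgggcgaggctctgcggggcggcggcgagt
Arntl: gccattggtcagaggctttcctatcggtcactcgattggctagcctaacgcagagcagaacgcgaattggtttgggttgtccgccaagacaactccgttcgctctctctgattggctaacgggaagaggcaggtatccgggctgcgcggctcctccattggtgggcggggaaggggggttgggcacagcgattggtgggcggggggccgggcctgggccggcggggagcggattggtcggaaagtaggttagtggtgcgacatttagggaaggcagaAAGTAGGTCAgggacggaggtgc

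The Ciart window held 3 E-boxes, which began at -116, -58 and -44 from the start. The Per1 window held 1 at -166, and both windows of Tef held 1 each. An E-box was thus found for 3 of the 9 genes with a window, and in 7.15% of all 32851 mouse windows of this length. These counts are by gene, and some genes have more than 1 window, while the shares are by window. The variant was found for Nr1d1 alone, at -28, and in 4.68% of all windows. Per3 was the only one of these genes with a D-box, the element that DBP and TEF bind, at -205 and -158, against 1.06% of all windows. The ROR element, through which ROR proteins raise and REV-ERB proteins lower Arntl, was found in Arntl alone, and in 0.219% of all windows. It lay in the Arntl window shown and not in the other window of that gene. The cAMP response element TGACGTCA was in no window of these genes and in 1.79% of all windows. A match describes letters in the window and does not show that a factor bound there. A second Per1 window, from an annotated start further downstream, held no E-box.

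Set per kilobase of exon, so that genes could be compared, the order of the mean levels over 20 mice was Tef, Nr1d1, Dbp, Per1, Nr1d2, Per2, Per3, Ciart, Clock and Arntl. Tef had a mean of 48.1 ± 2.43 CPM per kilobase (SD, n = 20) and Arntl, at the other end, 3.48 ± 0.255. Nr1d1 had 31.5 ± 4.12, Dbp 25.5 ± 3.51, Per1 20.9 ± 3.47 and Nr1d2 18.3 ± 1.72 CPM per kilobase. Transcripts of the PAR bZIP factors and of REV-ERB alpha were therefore more abundant than those of the ARNTL and CLOCK pair. Per2 had 13.1 ± 1.49, Per3 8.56 ± 0.69, Ciart 7.1 ± 1.36 and Clock 5.31 ± 0.39 CPM per kilobase. Neighbours in this order mostly kept it within each mouse, although the ranges over mice overlapped for all neighbours but Tef and Nr1d1, Per2 and Per3, and Clock and Arntl. Per1 was above Nr1d2 in 17 of 20 mice, with a mean difference of 2.64 ± 2.47 CPM per kilobase, and Per3 was above Ciart in 17 of 20, by 1.46 ± 1.24. These neighbours differed by little more than the spread between mice. The lowest raw count of any of the 10 genes in any of the 20 mice was 231, for Ciart, so counting error was small for all of them.

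Some of these genes share exons with a neighbour on the opposite strand. Sphk2 overlaps 539 bases (18%) of the exons of Dbp, Thra overlaps 263 bases (8.55%) of those of Nr1d1, and an antisense gene, Gm17597, overlaps 193 bases (2.45%) of those of Tef. The library kit keeps the strand, but the strand setting of the counting is not given in the sources used here. Without strand, reads from the shared bases cannot be told apart. Sphk2 and Thra are therefore given beside Dbp and Nr1d1 below.

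The first question was whether clock genes differed between MS and SR mice at 10 weeks. None of the 10 passed the test, and the levels of MS and SR mice overlapped for each of them. Nearly all genes overlapped in this way. Of the 18146 genes, 1 had all MS mice below all SR mice and 1 had all MS mice above. By edgeR's quasi-likelihood test with Benjamini-Hochberg adjustment, 2 of all 18146 genes were called (0.011%) and 0 of the 10 clock genes. At an unadjusted p under 0.05 the clock genes numbered 2, against 11.5% of all genes. DESeq2 called 132 of the 18146 genes, and 0 of the 10 clock genes. The log2 fold changes (MS against SR) were above 0 for 4 of the genes and below 0 for 6, with a median of -0.04, and the median over all genes was 0. In bulk tissue, fewer cells of a type and less RNA per cell cannot be told apart.

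Arntl, the partner of Clock and the core gene without which the loop is known to stop, had between 22.9 and 28.4 CPM in MS mice (median 25.9) and between 23 and 29.8 in SR mice (median 26.5). Clock had 66.7 to 77.6 CPM in MS mice (median 75.8) and 63.3 to 81.7 in SR mice (median 71). Neither activator differed by more than its spread. The log2 fold change was -0.02 (SE 0.0506) for Arntl and 0.04 (SE 0.0476) for Clock, with adjusted p of 0.92 and 0.807 by edgeR's quasi-likelihood test.

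The Period genes encode the repressor arm. Per1 had 93.1 to 147 CPM in MS mice (median 114) and 90.2 to 169 in SR mice (median 119). Per2 had 63.8 to 88.8 CPM in MS mice (median 77.6) and 67.4 to 105 in SR mice (median 75.1). Per3, which is known to be dispensable for the core loop, had 73.8 to 90.2 CPM in MS mice (median 76.9) and 73.5 to 100 in SR mice (median 82.6). The log2 fold changes were -0.05 (SE 0.104) for Per1, 0.02 (SE 0.0683) for Per2 and -0.10 (SE 0.0473) for Per3, and the adjusted p by edgeR were 0.89, 0.949 and 0.436. Ciart, the further repressor, had 12 to 17.7 CPM in MS mice (median 14.4) and 12.5 to 21.8 in SR mice (median 16.7). Its difference was the furthest from 0 of the 10 genes, at -0.23 (SE 0.109), and did not pass the test (adjusted p = 0.43 by edgeR).

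The REV-ERB receptors had log2 fold changes of opposite sign, and neither passed the test. Nr1d1 had 78.5 to 101 CPM in MS mice (median 90.7) and 82.3 to 124 in SR mice (median 106). Nr1d2 had 88.5 to 118 CPM in MS mice (median 101) and 88.5 to 122 in SR mice (median 95.2). The log2 fold change was -0.17 (SE 0.0724) for Nr1d1 and 0.03 (SE 0.0572) for Nr1d2, with adjusted p of 0.354 and 0.872 by edgeR, and the difference between the receptors was not tested. Thra, which overlaps Nr1d1, had a log2 fold change of -0.03 (SE 0.0637).

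The PAR bZIP outputs, Dbp and Tef, had levels that overlapped between the conditions. Dbp had 53.3 to 83.8 CPM in MS mice (median 74.8) and 63.4 to 98.7 in SR mice (median 78.7). Tef had 350 to 419 CPM in MS mice (median 386) and 348 to 409 in SR mice (median 375). The log2 fold changes were -0.12 (SE 0.0849) for Dbp and 0.03 (SE 0.0363) for Tef, with adjusted p of 0.625 and 0.809 by edgeR. Sphk2, which overlaps Dbp, was at 0.13 (SE 0.0499), which also did not pass the test (adjusted p = 0.323).

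With the number range in the model, MS and SR mice are compared within a range. By edgeR, 0 of the 10 genes were then called, where 0.011% of all genes were. At an unadjusted p under 0.05 there were 2 of the 10, against 12.5% of all genes. Nr1d1 was at -0.13 (SE 0.0454, adjusted p = 0.237), Ciart at -0.17 (SE 0.0749, adjusted p = 0.362) and Per1 at 0.00 (SE 0.0658, adjusted p = 0.984). The markers of choroid plexus, a tissue beside the hippocampus, had log2 fold changes above 0 for 10 of 10 genes, with a median of 0.88, and 0 passed the test (0 at an unadjusted p under 0.05). Their summed level ran from 171 to 6420 CPM in MS mice and from 175 to 7060 in SR mice. With a choroid plexus score as a term, 0 of all 18146 genes were called, and so 0 of the 10 clock genes.

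**Figure D1:**
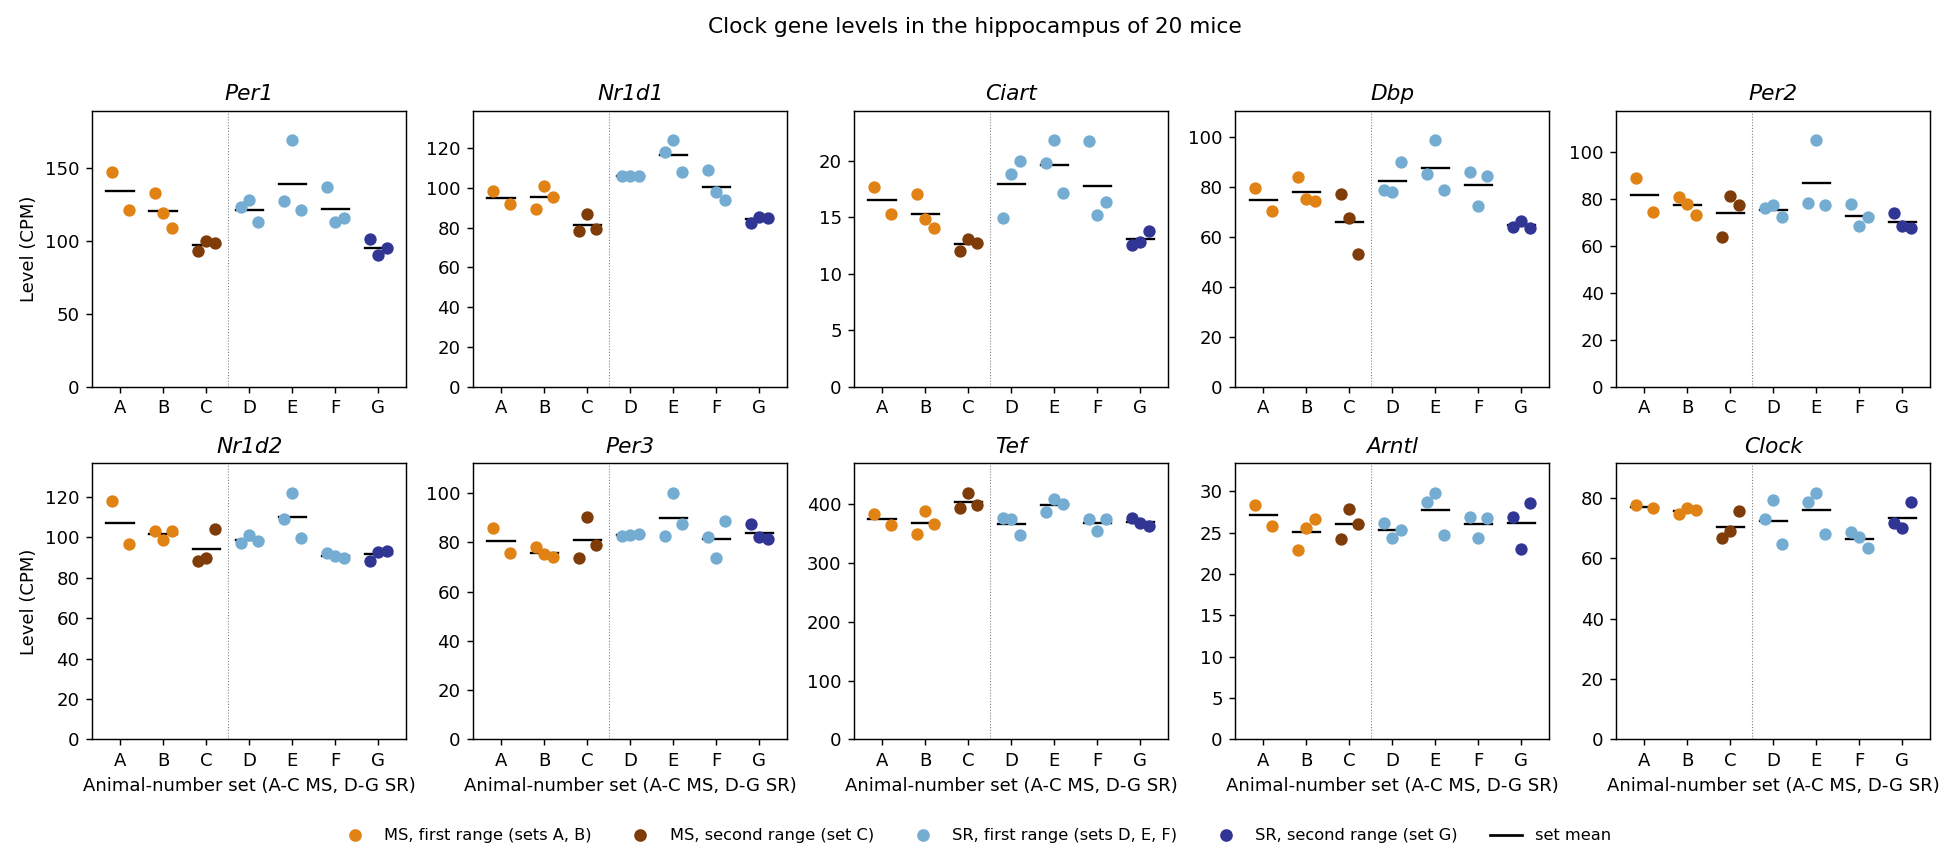
Level of each clock gene in CPM (vertical axis from 0) in each of 20 mice, by set of animal numbers (A to C are MS, D to G are SR); points are mice, bars are set means and dark points are the second range of numbers (sets C and G). Per1, Nr1d1 and Ciart in sets C and G lie below every mouse of the other sets, while Arntl, Clock, Per3 and Tef overlap with them.

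The second question was whether the ranges of animal numbers differed, since the hour of collection is not given and could differ between them. Per1, Nr1d1 and Ciart were lower in the second range than in the first, and the other 7 clock genes were not called. By edgeR's quasi-likelihood test with condition as a term, 51 genes were called (0.281% of the genes tested), of which 32 were lower in the second range (0.176%). Of the clock genes 3 were called, all lower. At an unadjusted p under 0.05 the clock genes numbered 5, against 15.1% of all genes. The median log2 fold change (second range against first) was -0.13 over the 10 genes and 0 over all genes.

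Per1 (ENSMUSG00000020893, chr11:69095217-69109960 on the plus strand) had 109 to 169 CPM in the 14 mice of the first range (median 122) and 90.2 to 101 in the 6 mice of the second (median 96.5). Its log2 fold change was -0.40 (SE 0.0716), a fold of 0.76, with an adjusted p of 0.0168 by edgeR. In the second range the 3 MS mice had 93.1, 100 and 98.2 CPM and the 3 SR mice 101, 90.2 and 94.9. The MS and SR mice overlapped at this level.

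Nr1d1 (ENSMUSG00000020889, chr11:98767932-98775333 on the minus strand) had 89.5 to 124 CPM in the first range (median 104) and 78.5 to 86.7 in the second (median 83.6). Its log2 fold change was -0.30 (SE 0.0491), a fold of 0.815, with an adjusted p of 0.00811 by edgeR. The second-range values were 78.5, 86.7 and 79.1 CPM in MS mice and 82.3, 85.3 and 84.8 in SR mice. Nr1d1 had the smallest p of the 10 clock genes in this comparison. Thra, on the other strand, was at 0.15 (SE 0.0622, adjusted p = 0.263), in the other direction.

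Ciart (ENSMUSG00000038550, chr3:95878503-95882251 on the minus strand) had 14 to 21.8 CPM in the first range (median 17.1) and 12 to 13.8 in the second (median 12.7). Its log2 fold change was -0.42 (SE 0.0814), a fold of 0.746, with an adjusted p of 0.0205 by edgeR. The second-range values were 12, 13.1 and 12.7 CPM in MS mice and 12.5, 12.8 and 13.8 in SR mice. For Per1, Nr1d1 and Ciart, every mouse of the second range was below every mouse of the first. Such a separation downward was found for 14 of the 18146 genes (0.0772%), these 3 among them.

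Dbp, the output gene that is driven by the same ARNTL and CLOCK pair, had 70.3 to 98.7 CPM in the first range (median 79.1) and 53.3 to 77.1 in the second (median 65.2). It was at -0.30 (SE 0.066) and just missed the threshold (adjusted p = 0.0512 by edgeR). In the second range 5 of 6 mice were below all mice of the first, the exception being C1 at 77.1 CPM. Leaving out C1 moved Dbp to -0.36 and an adjusted p of 0.00713, and without A3, E2 or F2 in turn it was called as well (adjusted p of 0.042, 0.0407 and 0.0328). The adjusted p was higher without G1 (0.161), G3 (0.151), G2 (0.0903), set A (0.0748), set C (0.0802) or set G (0.309, at -0.21). Sphk2 was at 0.06 (SE 0.0533).

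Per2 and Nr1d2, the paralogs of Per1 and Nr1d1, had smaller differences that were not called. Per2 had 68.4 to 105 CPM in the first range (median 77.4) and 63.8 to 81.4 in the second (median 71.3), with a log2 fold change of -0.13 (SE 0.07, adjusted p = 0.383). Nr1d2 had 89.8 to 122 CPM in the first range (median 99.3) and 88.5 to 104 in the second (median 91.3), with a log2 fold change of -0.13 (SE 0.0567, adjusted p = 0.276). For each of them, 2 of the 6 second-range mice lay below all first-range mice.

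Per3 and Tef, a repressor and an output of the loop, had levels that overlapped between the ranges. Per3 had 73.5 to 100 CPM in the first range (median 82.4) and 73.8 to 90.2 in the second (median 81.6), a log2 fold change of 0.02 (SE 0.0516, adjusted p = 0.91 by edgeR). Tef had 348 to 409 CPM in the first range (median 375) and 362 to 419 in the second (median 385), a log2 fold change of 0.04 (SE 0.0391, adjusted p = 0.679 by edgeR).

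Arntl is known to run opposite to Nr1d1 over the day, and its levels overlapped between the ranges. It had 22.9 to 29.8 CPM in the first range (median 26) and 23 to 28.6 in the second (median 26.5), a log2 fold change of 0.00 (SE 0.0553, adjusted p = 0.986 by edgeR). Clock, which has a weak rhythm in most tissues, had 63.3 to 81.7 CPM in the first range (median 75.3) and 66.7 to 78.6 in the second (median 71), a log2 fold change of -0.03 (SE 0.0517, adjusted p = 0.812 by edgeR). Npas2, the paralog of Clock that can take its place in the forebrain, was at -0.34 (SE 0.142, adjusted p = 0.276). No activator of the loop was called in either direction beside the lower Per1, Nr1d1 and Ciart.

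**Figure D2:**
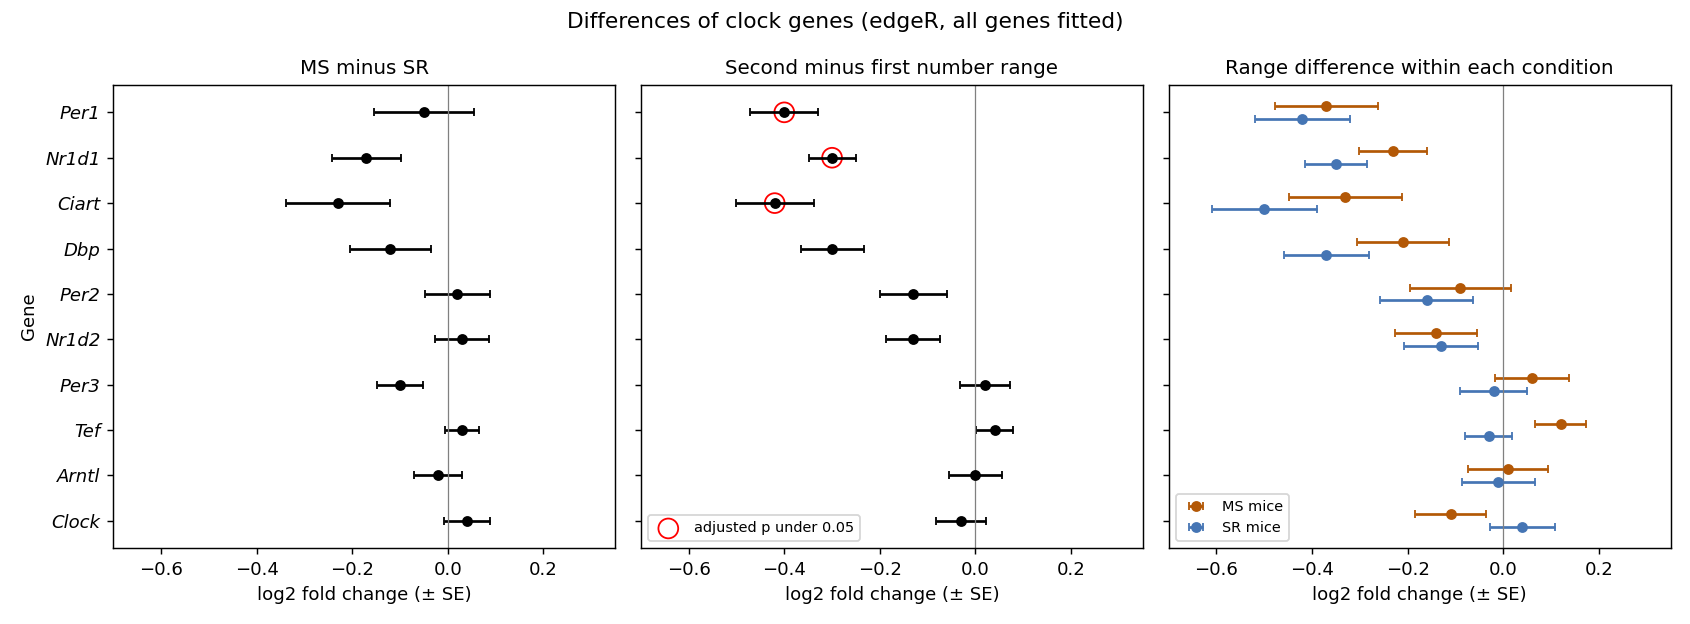
Log2 fold changes of the 10 clock genes with their standard errors (horizontal axis): MS against SR, second against first range of animal numbers, and the range difference within MS mice and within SR mice. Red rings mark an adjusted p under 0.05, which Per1 (-0.40), Nr1d1 (-0.30) and Ciart (-0.42) reached in the comparison of ranges, while no gene did so between MS and SR.

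The range difference had the same sign in each condition for Per1, Nr1d1, Ciart and Dbp, and was not called within either condition alone. Within SR mice (3 against 9), Per1 was at -0.42 (SE 0.0998, adjusted p = 0.195), Nr1d1 at -0.35 (SE 0.0654, adjusted p = 0.0568), Ciart at -0.50 (SE 0.11, adjusted p = 0.122) and Dbp at -0.37 (SE 0.0886, adjusted p = 0.187). Within MS mice (3 against 5), Per1 was at -0.37 (SE 0.108, adjusted p = 0.118), Nr1d1 at -0.23 (SE 0.071, adjusted p = 0.14), Ciart at -0.33 (SE 0.119, adjusted p = 0.184) and Dbp at -0.21 (SE 0.096, adjusted p = 0.257). By edgeR, 0 of the 10 were called within SR mice, where 0.0165% of all genes were, and 4 had an unadjusted p under 0.05 (7.11% of all genes). Within MS mice 0 of the 10 were called, where 0.198% of all genes were, and 5 had an unadjusted p under 0.05 (17.2% of all genes). The second range holds only set C in MS and set G in SR, and leaving out either set left 0 clock genes called. Over all genes, 7 of 18561 were called without set C and 31 of 17939 without set G. Per1 was then at -0.42 (adjusted p = 0.222) without set C and at -0.37 (adjusted p = 0.145) without set G. Nr1d1 was at -0.35 (adjusted p = 0.0547) and -0.23 (adjusted p = 0.175), and Ciart at -0.50 (adjusted p = 0.127) and -0.33 (adjusted p = 0.218). Of the leave-outs of 1 mouse, that of G3 left Nr1d1 as the only clock gene called, among 21 of 18087 genes. Per1 was then at -0.39 (adjusted p = 0.0628) and Ciart at -0.43 (adjusted p = 0.0699). The call of Ciart was also lost without G1 (adjusted p = 0.0849), G2 (adjusted p = 0.0627) or set A (adjusted p = 0.0591). With A2 kept in, Nr1d1 was again the only clock gene called, among 35 of 18077 genes. Per1 was then at -0.47 (adjusted p = 0.0808) and Ciart at -0.51 (adjusted p = 0.0808).

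The MS effect itself was compared between the ranges by an interaction term. By edgeR, 0 of all genes passed (0%), while 1573 (8.67%) had an unadjusted p under 0.05, and DESeq2 called 18. Of the clock genes 0 were called by either tool, and 1 had an unadjusted p under 0.05 by edgeR, Tef, with an interaction of 0.16 (SE 0.0727, adjusted p = 0.555). Tef had 393 to 419 CPM in the MS mice of the second range and 362 to 377 in the SR mice of that range. In the first range MS mice had 350 to 389 and SR mice 348 to 409. Thus Tef levels of MS and SR mice overlapped in the first range and did not overlap in the second. The second range holds only 3 MS mice, all of set C, and 3 SR mice, all of set G. How many of all genes were separate between these few mice was not counted, so no difference of Tef is read from it.

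The 3 mice of a set may share a litter, so the comparison of ranges was repeated with sets in place of mice. With the counts summed within each of the 7 sets, edgeR called 0 genes (2395 at an unadjusted p under 0.05) and 0 clock genes (4 at an unadjusted p under 0.05). The log2 fold changes were of the same size, -0.41 for Per1 (adjusted p = 0.252), -0.30 for Nr1d1 (adjusted p = 0.266) and -0.44 for Ciart (adjusted p = 0.242). With limma-voom and the set as a random block, 4 clock genes were called, Dbp besides Per1, Nr1d1 and Ciart, among 59 of the 18146 genes. The correlation within sets in that fit was estimated at -0.0121, so the block took up no shared spread of the sets. The second range holds 2 sets and the first holds 5.

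Sets of the same condition were compared next. Nr1d1 was called between sets by edgeR's quasi-likelihood test (F = 12.8, adjusted p = 0.0411), among 6 genes of 18146 (0.0331%), and no other clock gene was called. The set means of Nr1d1 were 95.2, 95.4 and 81.4 CPM in sets A, B and C, and 106, 117, 100 and 84.1 in sets D, E, F and G. The 3 mice of set D had 106 CPM each, and those of set E had 118, 124 and 108. Of the spread of Nr1d1 within conditions, 84.7% lay between sets, against a median of 30.4% over all genes. This share was 70.5% for Per1, 66.7% for Ciart, 62.1% for Tef, 60% for Nr1d2 and 58.6% for Dbp, and lower for Clock (41.5%), Per2 (39.1%), Per3 (25.6%) and Arntl (20.2%).

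At an unadjusted p under 0.05, 5 clock genes differed between sets, against 9.09% of all genes. Between sets of the same condition and the same range, 0 clock genes were called by edgeR, where 1 gene was called over all (0.00551%). Nr1d1 (unadjusted p = 0.0308) and Nr1d2 (unadjusted p = 0.0142) were the 2 with an unadjusted p under 0.05 there, against 3.7% of all genes. Nr1d2 had 118 and 96.5 CPM in set A, 103, 98.9 and 103 in set B, 97, 101 and 98.1 in set D, 109, 122 and 99.7 in set E, and 92.4, 90.7 and 89.8 in set F. Set E was thus high and set F low for Nr1d2 among the SR sets of the first range. The call of Nr1d1 between sets did not hold when any of 13 mice was left out in turn (A1, B3, C1, C3, D1, D2, D3, E1, E2, F2, G1, G2 and G3), nor with all 21 libraries.

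A single mouse, E2, stood out in most of the clock genes at once. E2, an SR mouse, had the highest level among the 20 mice for 9 of the 10 genes, with 169 CPM of Per1, 105 of Per2, 100 of Per3, 98.7 of Dbp, 124 of Nr1d1, 122 of Nr1d2, 21.8 of Ciart, 29.8 of Arntl and 81.7 of Clock. For Tef it had 409 CPM, second to C2 at 419. C1, an MS mouse, had the lowest level for 4 of the 10. How many of all genes were highest in E2 or lowest in C1 was not counted. These counts are therefore not read as particular to the clock genes. E2 was therefore high for both arms of the loop, the Per and Nr1d genes and the activators alike. A mean z-score over the 8 genes other than Arntl and Clock was 2.18 in E2, 0.86 in A1 and 0.76 in E1, and -0.96 in C1, -0.87 in G3 and -0.85 in G2. E2 and A1 also had the lowest sums of the hippocampal markers of the 20 mice, 820 and 797 CPM, where the highest was 1530. The summed striatal markers were 594 CPM in E2, and only B1 had more (923 CPM). The part of these markers in the clock gene levels of E2 and A1 was not tested. All 6 mice of the second range had a mean below 0, between -0.96 and -0.08, and first-range mice had -0.64 to 2.18.

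Across the 20 mice, most of the clock genes went up and down together. Among the 28 pairs of the 8 genes, Pearson's r of log2 CPM was above 0 for 26 and had a median of 0.52. The closest pairs were Nr1d1 with Ciart (0.87), Per1 with Ciart (0.85), Dbp with Ciart (0.81), Per1 with Nr1d1 (0.80) and Per1 with Per2 (0.80). Tef had 0.08 with Per1, 0.08 with Nr1d1, -0.09 with Ciart and -0.08 with Dbp over the 20 mice. Within the first-range mice it had 0.54 with Per1 and 0.66 with Nr1d1, and with set means taken out 0.40 and 0.53. The low values of Tef with Per1 and Nr1d1 were thus not found within the first range or with set means taken out. With Ciart and Dbp, Tef had 0.26 and 0.27 within the first-range mice, and still -0.04 and -0.01 with set means taken out. Nr1d2 was closest to Per2 (0.79), and Per3 to Per2 (0.66). With set means taken out, the 6 pairs of Per1, Nr1d1, Ciart and Dbp had lower values, from 0.27 for Dbp with Nr1d1 to 0.65 for Per1 with Ciart.

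Arntl, which is known to peak opposite to the others over the day, and Clock did not run opposite to them across mice. Of the 16 pairs of an activator with one of the 8 genes, 15 had an r above 0, with a median of 0.33. Arntl had 0.33 with Nr1d1 and 0.33 with Per1, 0.27 with Ciart and 0.13 with Dbp. With set means taken out, the median r was 0.48 among the 8 genes and 0.41 between them and the activators. Without E2, and with set means left in, the medians were 0.36 and 0.15, lower than the 0.52 and 0.33 over 20 mice. Of the 28 pairs of the 8 genes, 23 then had an r above 0 and 5 below, the lowest at -0.29. Pairs of other genes were not measured beside them. Genes of the same library share its depth and its scaling, so these values are a description of these mice.

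**Figure D3:**
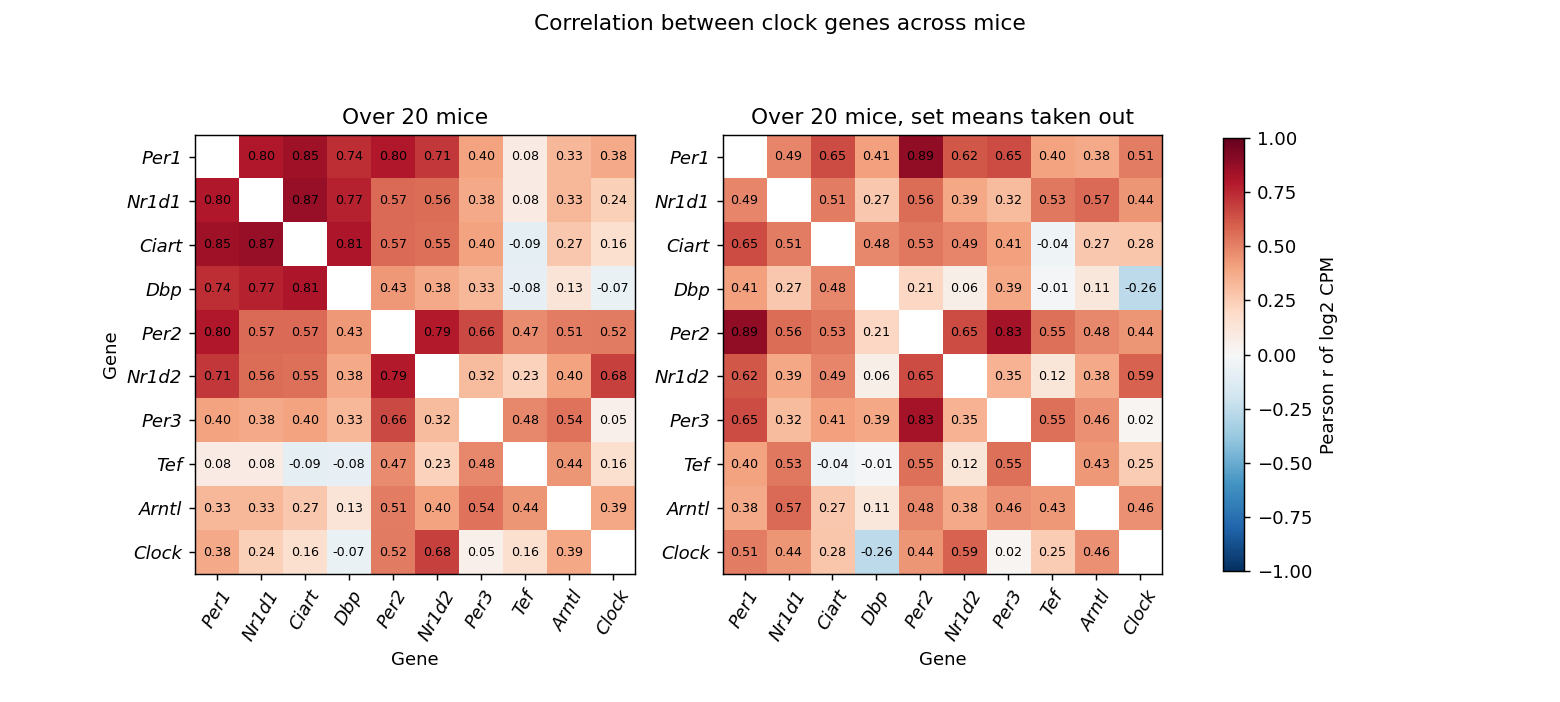
Pearson's r of log2 CPM between clock genes over 20 mice (left panel) and over the same mice with the mean of each set taken out (right panel), red above 0 and blue below 0. Per1, Nr1d1, Ciart and Dbp form a block with r from 0.74 to 0.87 in the left panel and from 0.27 to 0.65 in the right panel. In the left panel Arntl has r above 0 with each of the 8 genes outside the activator pair.

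The levels of immediate early genes, which neurons switch on soon after firing, were set beside the clock genes. All 10 genes of the list (Fos, Fosb, Junb, Egr1, Egr2, Arc, Npas4, Nr4a1, Dusp1 and Ier2) had a log2 fold change below 0 in the second range against the first, with a median of -0.66. At an unadjusted p under 0.05 there were 9 of 10, against 15.1% of all genes. Junb, 1 of the 10, passed the test (-0.47, SE 0.0937, adjusted p = 0.0303 by edgeR), where 0.281% of all genes passed. Their summed level was 393 to 997 CPM in the first range (median 498) and 297 to 430 in the second (median 374). The mean z-score of the 8 clock genes had an r of 0.88 with the log2 of this sum over 20 mice, of 0.84 over the 14 first-range mice and of 0.85 without E2. E2 had 948 CPM of immediate early genes and A1, the mouse with the second highest mean z-score, had 997.

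This relation was uneven among the clock genes. Over 20 mice, r with the summed immediate early genes was 0.90 for Per1, 0.83 for Per2, 0.79 for Nr1d2, 0.67 for Nr1d1, 0.67 for Ciart and 0.62 for Dbp. It was 0.47 for Arntl, 0.42 for Per3, 0.38 for Clock and 0.37 for Tef. Within the first range it was 0.89 for both Per1 and Per2, and lower for Nr1d1 (0.46), Ciart (0.47) and Dbp (0.45). With an immediate early score as a term in the comparison of ranges, edgeR called 14 genes and 0 of the clock genes. The clock genes with an unadjusted p under 0.05 numbered 6, against 1559 of all 18146 genes. Per1 was then at -0.18 (adjusted p = 0.182), Nr1d1 at -0.19 (adjusted p = 0.182) and Ciart at -0.26 (adjusted p = 0.361). The score was itself lower in the second range, so this term takes up part of any difference between the ranges.

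**Figure D4:**
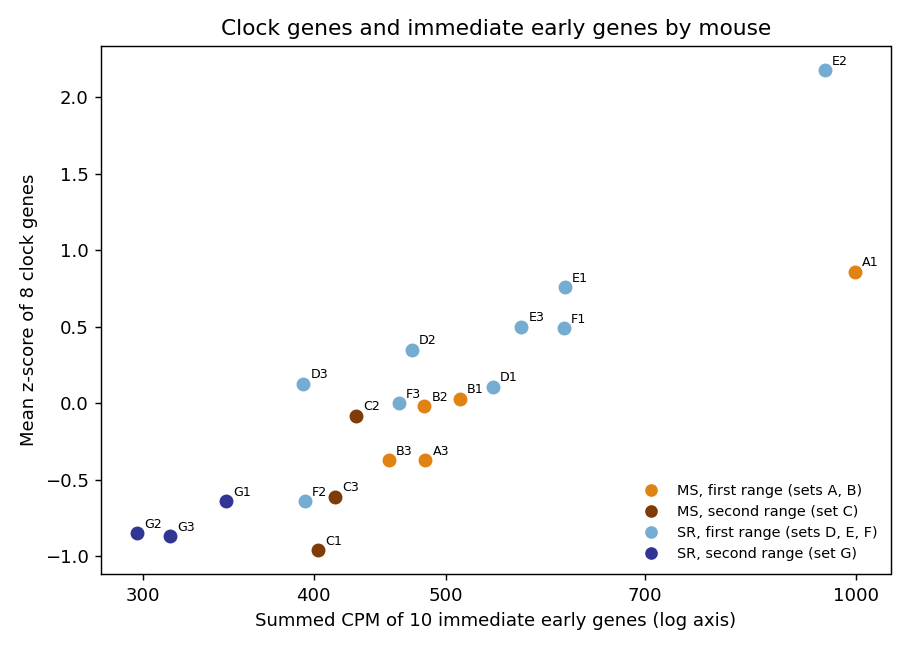
Mean z-score of log2 CPM over 8 clock genes (vertical axis) against the summed CPM of 10 immediate early genes (horizontal axis, log scale), each point 1 of 20 mice. E2 and A1 lie at the upper right, with 948 and 997 CPM, and the 6 mice of sets C and G lie at the lower left, at 297 to 430 CPM.

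Targets of the glucocorticoid receptor, which the daily corticosterone peak and stress are known to raise, were measured in the same mice. Of 10 such genes, 9 had a log2 fold change below 0 in the second range, and the median was -0.33. An unadjusted p under 0.05 was found for 8, all below 0, against 15.1% of all genes. The test was passed by 2, Tsc22d3 (-0.34, SE 0.057, adjusted p = 0.00832 by edgeR) and Zbtb16 (-0.32, SE 0.0609, adjusted p = 0.0185 by edgeR), where 0.281% of all genes passed. Their summed level was 374 to 506 CPM in the first range and 351 to 377 in the second. Over the 14 first-range mice, r of a clock gene with the log2 of this sum was -0.16 for Per1, -0.69 for Nr1d1 and -0.33 for Dbp. Over all 20 mice it had the other sign, with 0.56 for Per1, 0.35 for Nr1d1 and 0.47 for Dbp, and without E2 it was 0.67, 0.39 and 0.52. The part of these genes in the clock gene differences was not tested.

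Markers of tissues beside the hippocampus were compared between the ranges too. The log2 fold changes of the 8 striatal markers had a median of -0.90, and 0 passed the test by edgeR (1 at an unadjusted p under 0.05). Their summed level ran from 172 to 923 CPM in the first range and from 180 to 203 in the second, and the highest were B1 (923 CPM) and E2 (594 CPM). The 10 choroid plexus markers had a median of -0.31, the 10 hippocampal markers of 0.27 and the 8 vascular markers of -0.01, with 0 called in each. At an unadjusted p under 0.05 there were 4 of the 10 hippocampal markers and 2 of the 8 vascular ones, all higher in the second range, and 0 of the 10 choroid plexus markers. The share over all genes was 15.1%. The hippocampal markers were above 0 for 9 of 10. Of 8 markers of the suprachiasmatic nucleus and hypothalamus, 5 were high enough to be tested, and their summed level was 16.7 to 39.6 CPM over the 20 mice. The part of the striatal, hippocampal and vascular markers in the clock gene levels was not tested. With a choroid plexus score as a term, Per1, Nr1d1, Ciart and Dbp were called, among 74 of the 18146 genes.

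Of 25 other genes of the clock pathway, 24 were tested, and 0 were called by edgeR in any comparison. Between MS and SR mice, 2 of the 24 had an unadjusted p under 0.05, against 11.5% of all genes. Their median log2 fold change was -0.06 over the 24. Among those with the smallest p, those above 0 included Nfil3, the repressor that competes with DBP at D-boxes (0.19, SE 0.0943, adjusted p = 0.433) and Wee1 (0.09, SE 0.0523, adjusted p = 0.53). Those below 0 were Cirbp, a cold-inducible RNA-binding protein (-0.20, SE 0.0829, adjusted p = 0.366), Cry2 (-0.08, SE 0.0391, adjusted p = 0.44) and Arntl2 (-0.13, SE 0.0721, adjusted p = 0.488). Nfil3 had 6.9 to 12 CPM in MS mice (median 8.52) and 6.5 to 9.88 in SR mice (median 7.77), so the groups overlapped.

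Between the ranges, 21 of the 24 had a log2 fold change below 0, and the median was -0.08. An unadjusted p under 0.05 was found for 5 of the 24, 4 of them below 0, against 15.1% of all genes. The smallest p were those of Rora, a receptor that is known to raise Arntl (-0.52, SE 0.164, adjusted p = 0.176 by edgeR), and Ppargc1a, a coactivator of such receptors (-0.18, SE 0.0605, adjusted p = 0.177 by edgeR), which were chosen after their values were seen. Cry1, the cryptochrome that sets the late phase of the loop, had 15.2 to 25 CPM in the first range and 17.7 to 19.3 in the second, a log2 fold change of -0.05 (SE 0.0844, adjusted p = 0.804). Cry2 was at -0.07 (SE 0.0403), Hlf, the other PAR bZIP factor, at -0.14 (SE 0.107), Nfil3 at -0.08 (SE 0.103) and Bhlhe41, also called DEC2, at -0.17 (SE 0.0668, adjusted p = 0.235). Between sets, the 3 with the smallest p were Bhlhe41 (F = 4.62, adjusted p = 0.415), Bhlhe40 (F = 3.79, adjusted p = 0.485) and Hlf (F = 3.56, adjusted p = 0.487).

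The genes whose levels were most like the clock genes were found among 15845 other genes with a mean of at least 1 CPM, by their r with the mean z-score of the 8 clock genes over 20 mice. The 8 with the highest r were Foxo3 (0.90), a forkhead transcription factor, Wdr76 (0.89), Arhgef15 (0.89), Lpcat4 (0.89), Osbpl3 (0.89), Camkk2 (0.89), a calcium-dependent kinase kinase, the immediate early gene Egr1 (0.89) and Epb41 (0.88). The 4 with the lowest were Ctnnb1 (-0.89), which encodes beta-catenin, Cops3 (-0.87), Rnf128 (-0.87) and Parp8 (-0.86). Of the 12, Foxo3 was called between the ranges (-0.26, adjusted p = 0.0389 by edgeR), where 0.281% of all genes were. The 12 were picked over the same 20 mice, by a score that was itself low in the second range. The call of Foxo3 is therefore not independent of how it was picked. When Dbp alone was used, the highest were Kcnj4 (0.85), Nupr1 (0.84) and Nfic (0.84), the lowest was Ints3 (-0.89), and 0 of these 12 genes were among the first 12.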

How the data were processed

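Libraries of poly-A RNA came from the hippocampus of 9 MS and 12 SR mice. Reads were mapped by the authors with STAR 2.7.3a (GRCm38), and they counted these per Ensembl gene with featureCounts from directional libraries and deposited the counts of 55487 genes, neither normalized nor filtered. Columns of no sample numbered 0. Symbols and exons were taken from GENCODE M21, where 260 genes had no entry.

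Samples were grouped by the treatment and the animal numbers in the labels, and replicates were separate mice. The closest libraries within a condition (A3 and B3) differed with a chi-square of 3.6 per degree of freedom, so none was taken as a duplicate. A2 was left out as the one farthest from the median in a PCA of the 500 most variable genes (variance-stabilised counts) over 21 libraries. The study also removed an outlier but does not name it, so whether that was A2 is not known.

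Counts were filtered by filterByExpr (minimum count 10), normalized by TMM and tested by edgeR 4.0.16's quasi-likelihood test with robust fitting in R 4.3.3, in place of the study's DESeq2. Benjamini-Hochberg adjustment ran over all genes tested, and an adjusted p under 0.05 was called. Models held the condition, the condition and the range, their interaction, or the sets. Standard errors were derived from each log2 fold change and its F statistic. Log2 CPM used a prior count of 2. The scripts were tested on simulated data.

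The clock genes, the gene lists and the tests were chosen with earlier results of these data known. All 10 clock genes are named. Of 25 other pathway genes, those named are the 3 with the smallest p in each direction between MS and SR, the 3 with the smallest p between sets, and Cry1, Cry2, Npas2, Hlf, Nfil3 and Bhlhe41, and, by their correlation with the clock genes, the 8 highest and 4 lowest. A gene that this rule names is not reported here. Other genes come from lists of immediate early genes, glucocorticoid targets and cell type markers. Alternatives were all 21 libraries, DESeq2 1.42.0, other filters and size factors, a choroid plexus score or the range as a term, limma-voom (limma 3.58.1) with the set as a block, counts summed per set, and each mouse and set left out in turn. For the ranges, those with sets as the unit, the immediate early score or a single condition were added after seeing the data.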

Additional observations from a re-analysis of the deposited data

Results flagged for a closer look

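The MS library A2, which the comparisons do not use, had higher levels of 8 of the 10 clock genes than each of the 12 SR mice, in CPM scaled over all 21 libraries, so that values differ slightly from those scaled over 20. It had 212 CPM of Per1 against at most 169 in SR mice, 125 of Per2 (at most 105), 104 of Per3 (at most 100) and 28.9 of Ciart (at most 21.8). It had 132 CPM of Dbp (at most 98.7), 451 of Tef (at most 409), 125 of Nr1d1 (at most 124) and 31.6 of Arntl (at most 29.8). Nr1d2, at 112 CPM, and Clock, at 67, lay within the range of the SR mice. Repressors, outputs and an activator were thus high together in this library. How many of all genes were above all SR mice in A2 was not counted. The count of clock genes is therefore not read as particular to them. The summed hippocampal markers were 377 CPM in A2 and 797 to 1530 in the other libraries, the striatal markers were 2490 against 172 to 923, the vascular markers 374 against 197 to 307 and the immediate early genes 1100 against 297 to 996. The part of tissue makeup and of neuronal activity in these levels was not tested. Among the 8 MS mice used, no clock gene had a mouse that stood apart from the others by Dixon's test. Dbp in C3 came nearest, with a gap of 0.519 of the range against a critical value of 0.526.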

How the results depend on the processing

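No paired analysis was possible because the replicate numbers of MS and SR mice follow accession order and the labels pair no mice. The count of clock genes called between MS and SR, and for the interaction, was 0 under each alternative run. All genes called between MS and SR numbered 2, against 1 with all 21 libraries, 132 by DESeq2, 1 without a filter, and 0 with the choroid plexus score, with the set as a block or with counts summed per set. When a mouse or a set was left out they numbered 0 to 340, with 340 without set C and 109 without C2 or C3, and clock genes 0 to 0. Between the ranges, all genes called numbered 51, against 319 by DESeq2, 0 with summed counts, 14 with the immediate early score, 3 within SR mice, and 7 to 81 with a mouse or a set left out (7 without set C, 15 without G1, 81 without F3). Clock genes called there numbered 3, against 1 with all 21 libraries, 0 with summed counts, with the immediate early score, and within SR or MS mice, and 0 to 4 with a mouse or a set left out. Between sets, all genes numbered 6, against 177 by DESeq2, 1992 without a filter, 1 within a range, and 1 to 14 with a mouse or a set left out. Clock genes numbered 1, against 0 with all 21 libraries, 3 by DESeq2, 5 without a filter, 0 within a range, and 0 to 1 with a mouse or a set left out. Some differences that were not called turned sign. Between MS and SR, Arntl was at 0.02 with all 21 libraries and 0.01 with the choroid plexus score, Dbp at 0.01 (from -0.12) and Per1 at 0.08 with all 21 libraries. Between the ranges, Arntl was at 0.00 without a filter, 0.10 with the immediate early score and 0.01 within MS mice, Clock at 0.05 with that score and 0.04 within SR mice, Nr1d2 at 0.02 and Per2 at 0.06 with that score (both from -0.13), Per3 at -0.02 with all 21 libraries and -0.02 within SR mice, and Tef at -0.03 within SR mice. With a mouse or a set left out, differences that turned ran from -0.04 to 0.01 for Arntl, -0.15 to 0.07 for Per1, -0.02 to 0.09 for Per2, -0.01 to 0.10 for Nr1d2, -0.02 to 0.06 for Tef and 0.00 to 0.08 for Clock between MS and SR, and from -0.03 to 0.04 for Arntl, -0.11 to 0.04 for Clock, -0.02 to 0.06 for Per3 and -0.03 to 0.12 for Tef between the ranges. The causes were not tested, and the interaction could not be fitted without set C or G. What depth limits was not tested.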
